A study of Mus musculus with 4 samples.

Results

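The genes of the primary (azurophil) granules of neutrophils studied here were Mpo, Prtn3, Elane and Ctsg, with Ms4a3, a gene switched on in the same precursor cells. They were found by symbol, as every probe set annotated to exactly 1 gene symbol that is one of these names. This gave 5 probe sets, 1 per gene, out of 45037 used, and 5 genes out of 18193. Each was read once in 4 sorted mouse populations, with 1 single-colour array per population. These were mature granulocytes, haematopoietic progenitors (HPC), and stem cells with long-term (LT-HSC) or short-term (ST-HSC) repopulating capacity. Granulocytes were sorted from bone marrow by side scatter and strong Gr-1 staining, to 99.4% purity by morphology according to the labels. The other populations were selected for c-Kit and freed of cells that bore markers of mature lineages (Ter119, B220, CD3, CD4, CD8, and Gr-1 or CD11b of myeloid cells). HPC were then taken as Sca-1 negative, LT-HSC as Sca-1 positive and CD34 negative, and ST-HSC as Sca-1 positive and CD34 positive. No transgene or treatment is named for any group, and the sources used here do not give the strain, age or number of animals. Only 50 to 200 cells per population were used, and their RNA was amplified in 2 rounds.

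Primary granules are the first granules that a developing neutrophil makes, at the promyelocyte stage. Their cargo is transcribed in a burst during that stage and stored for the life of the cell, so that the protein outlasts its messenger RNA. Secondary and tertiary granule proteins are transcribed later in the same lineage. Myeloperoxidase, the product of Mpo, is a haem enzyme that makes hypochlorous acid. Proteinase 3 (Prtn3), neutrophil elastase (Elane) and cathepsin G (Ctsg) are serine proteases of 1 structural family. Ms4a3 encodes a membrane protein with 4 membrane-spanning stretches. It is not itself granule cargo, and is known from granulocyte-monocyte progenitors.

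The signals are intensities on a linear scale, and a value under the floor of 120.1, the median of all signals, was treated as not measured. On each array the highest of 27 absent bacterial controls lay between 52.5 and 138. With 1 array per population there was no replicate and no test. The yardstick of error was the SD, over genes, of the gap between the log2 differences given by a pair of probe sets of the same gene. It was 1.35, 1.32 and 1.37 log2 units for HPC, LT-HSC and ST-HSC against granulocytes, 0.89 for HPC against LT-HSC, 0.95 for HPC against ST-HSC and 0.89 for ST-HSC against LT-HSC. It does not cover the spread between sorts or amplifications. A lower signal in a sorted population can come from fewer cells with the transcript or from less transcript per cell, and these cannot be told apart here.

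The LT-HSC array held signals of neutrophil genes, which are given here before the comparisons that use this array. Genes of later granules, which belong to more mature neutrophils, were measured there although Gr-1 and CD11b positive cells had been sorted away. Ltf (lactoferrin) had a signal of 2502 on the LT-HSC array, against 44166 for granulocytes, 24.7 for HPC and 18.4 for ST-HSC. Ngp had 5299, against 52499, 169.8 and 111, and Chil3 had 5265, against 36963, 8.0 and 3.8. HPC and ST-HSC were thus at or near the floor for these genes. Signals on the LT-HSC array were thus 5.66% of the granulocyte signal for Ltf, 10.1% for Ngp, 14.2% for Chil3 and 5.07% for Camp (cathelicidin). For Mmp8 and Mmp9, the collagenase and gelatinase of neutrophils, they were 0.170% and 0.135%, under the floor. Summed over 8 secondary and tertiary granule genes, the signal was 366891 in granulocytes, 19330 in LT-HSC, 434 in HPC and 475 in ST-HSC. Summed over 5 mature neutrophil markers it was 171019, 9309, 301 and 301. Of these markers, Cxcr2 and Itgam, which encodes CD11b, lay under the floor on the LT-HSC array. Cd34 had 2384 on this array, against 9778 for ST-HSC and 5190 for HPC. These cells were sorted as CD34 negative, but that gate reads protein at the cell surface and the array reads messenger RNA. Cd79b, a B lineage gene, had 3562 there and 428 to 1942 on the other arrays, although B220 positive cells had been removed. The other B lineage markers measured did not share this order. Cd79a had 176.5 in LT-HSC and 176.8 in HPC, and Ms4a1 lay under the floor on the LT-HSC array. On the granulocyte array itself Mpo had 246 and Ms4a3 537, and Prtn3, Elane and Ctsg lay under the floor. On the LT-HSC array Mpo had 1149, Ms4a3 372, Prtn3 2164 and Ctsg 188, and Elane lay under the floor. The part of transcripts from other cells in the LT-HSC values of the primary granule genes was not tested.

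**Figure D1:**
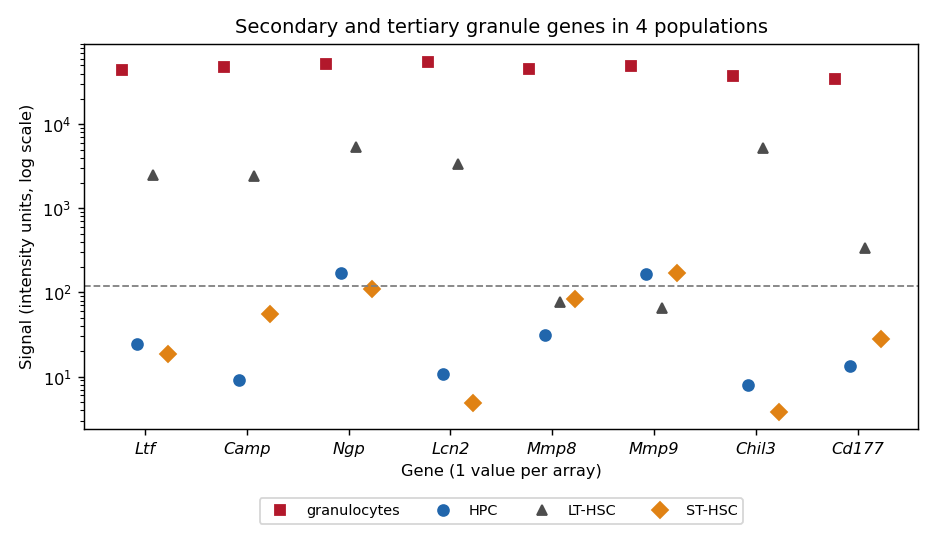
Signals of 8 secondary and tertiary granule genes (log axis, intensity units), with 1 point per array and the floor of 120.1 as a dashed line. Granulocytes lie highest for every gene, and the LT-HSC array lies above HPC and ST-HSC for 6 of them, not for Mmp8 and Mmp9.

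Of the 5 primary granule genes, all were highest in HPC, and this order is shown in the plot of their signals. Among the 14408 genes above the floor on at least 1 array, 22.4% were highest in HPC. Mpo had a signal of 32023 for HPC, 18718 for ST-HSC, 1149 for LT-HSC and 246 for granulocytes, so HPC and ST-HSC stood together well above the others. It was 1.71-fold higher in HPC than in ST-HSC, 0.81 of the yardstick SD, and 16.3-fold higher in ST-HSC than in LT-HSC, 4.50 of the SD. LT-HSC lay 4.67-fold above granulocytes, which was within 2 SDs of the yardstick at 1.68.

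The 3 protease genes fell away from HPC more steeply than Mpo on the ST-HSC array. Prtn3 had 12638 for HPC, 2425 for ST-HSC, 2164 for LT-HSC and 9.8 for granulocytes. Its stem cell arrays were alike, 1.12-fold apart (0.18 of the SD), and HPC lay 5.21-fold above ST-HSC, at 2.50 SDs. Elane had 2181, 175, 89.3 and 51.2 in the same order of populations. It was under the floor in granulocytes and LT-HSC, which therefore have no order, and HPC stood 12.4-fold above ST-HSC, at 3.81 SDs. Ctsg had 14683, 671, 188 and 27.3, again in that order. HPC stood 21.9-fold above ST-HSC (4.67 SDs), and ST-HSC 3.57-fold above LT-HSC (2.05 SDs). In granulocytes none of the 3 protease genes was above the floor.

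Ms4a3 had the weakest contrast with granulocytes. Its signal was 3372 for HPC, 537 for granulocytes, 372 for LT-HSC and 199.9 for ST-HSC, so that it was the only one of the 5 genes with granulocytes in second place. HPC lay 6.28-fold above granulocytes, which was 1.96 of the yardstick SD and so within 2 SDs. Granulocytes and LT-HSC were 1.44-fold apart (0.40 SDs), and LT-HSC and ST-HSC 1.86-fold (1.00 SD). These 3 populations lay within 2 SDs of each other for this gene.

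**Figure D2:**
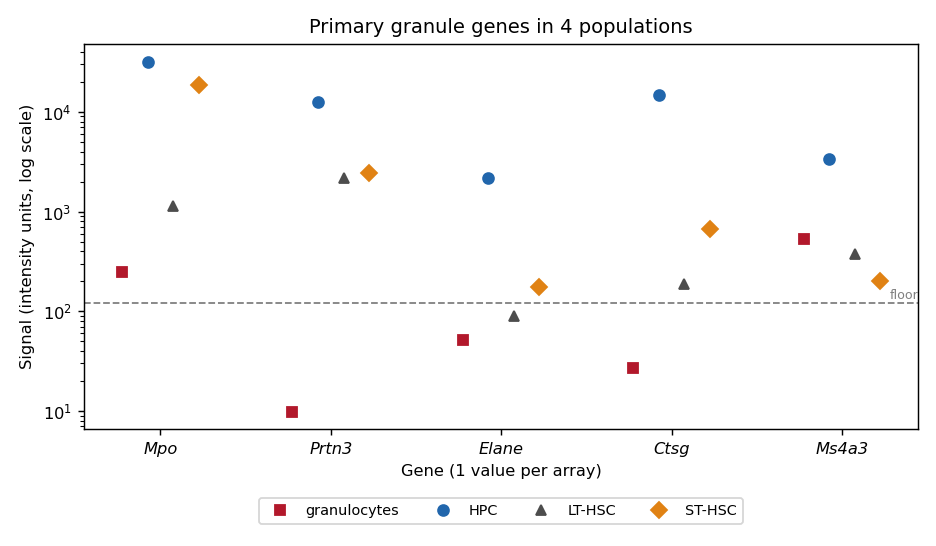
Signals of the 5 primary granule genes on the 4 arrays (log axis, intensity units), 1 point per array, with the floor of 120.1 as a dashed line. The HPC point is highest for each gene, and the ST-HSC point is close to it for Mpo (18718 against 32023) but not for the other genes.

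Expressed as a percentage of the HPC signal of the same probe set, the ST-HSC signal was 58.5% for Mpo, 19.2% for Prtn3, 8.03% for Elane, 5.93% for Ms4a3 and 4.57% for Ctsg. The LT-HSC signal was 17.1% for Prtn3, 11.0% for Ms4a3, 3.59% for Mpo and 1.28% for Ctsg, and Elane was not measured there. Mpo thus had the highest share of the 5 genes in ST-HSC, and in LT-HSC a lower share than Prtn3 and Ms4a3, while Prtn3 had nearly the same share in both. The granulocyte signal was 15.9% for Ms4a3 and 0.769% for Mpo. Prtn3, Elane and Ctsg were not measured there.

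Since all 5 genes had their highest signal in the same population, the bases before their start sites were read from RefSeq (GRCm38.p6) and searched on both strands for 4 short motifs. All 5 genes were found in that table. Prtn3 and Elane are shown because they are neighbours on chromosome 10, with no other protein-coding gene between them in the RefSeq annotation, and yet had different shares in the stem cell arrays. Mpo and Ctsg are shown because they were the least and the most restricted to HPC of the genes against ST-HSC. Capitals mark motif matches, and each sequence runs 5′ to 3′ on the gene's strand and ends at the base before the start site. Prtn3 is the 150 bases at chr10:79879517-79879666 (+), Elane the 150 bases at chr10:79886162-79886311 (+), Mpo the 250 bases at chr11:87793534-87793783 (+) and Ctsg the 250 bases at chr14:56102575-56102824 (-).
Prtn3: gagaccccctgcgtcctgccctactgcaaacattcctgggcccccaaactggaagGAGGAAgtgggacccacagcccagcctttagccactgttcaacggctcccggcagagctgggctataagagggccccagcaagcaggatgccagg
Elane: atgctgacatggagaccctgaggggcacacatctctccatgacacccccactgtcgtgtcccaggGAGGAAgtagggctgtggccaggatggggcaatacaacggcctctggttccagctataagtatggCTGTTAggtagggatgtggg
Mpo: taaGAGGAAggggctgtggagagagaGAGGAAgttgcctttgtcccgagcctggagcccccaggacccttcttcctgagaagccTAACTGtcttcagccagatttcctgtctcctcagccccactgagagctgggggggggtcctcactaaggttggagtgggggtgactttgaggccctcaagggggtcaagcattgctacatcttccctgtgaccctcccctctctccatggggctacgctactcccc
Ctsg: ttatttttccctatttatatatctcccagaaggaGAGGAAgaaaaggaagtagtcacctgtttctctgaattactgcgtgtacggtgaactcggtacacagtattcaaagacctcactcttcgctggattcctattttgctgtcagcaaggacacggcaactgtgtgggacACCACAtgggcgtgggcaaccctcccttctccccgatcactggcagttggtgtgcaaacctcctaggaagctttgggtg

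The PU.1 motif GAGGAA was found in the 250 bases before 4 of the 5 genes, and 23.3% of 32851 promoters held it in windows of that length. It lay 95 to 90 bases before the start of Prtn3 and 85 to 80 before that of Elane, 216 to 211 before that of Ctsg, and at 2 places before that of Mpo, 247 to 242 and 224 to 219. The RUNX motif TGTGGT was found, as its reverse complement, only before Ctsg of the 5 genes (14.0% of promoters), 79 to 74 bases before the start. The MYB motif TAACNG was found before Mpo and Elane (19.8% of promoters). The C/EBP motif TTGCNNAA was found before none of them (9.56% of promoters), and no motif was found before Ms4a3. No match overlapped another. A match describes letters only.

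**Figure D3:**
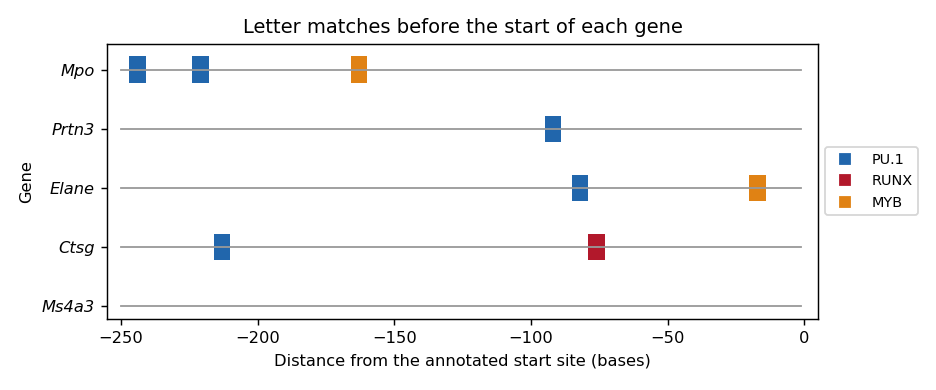
Positions of motif matches in the 250 bases before the annotated start of each gene, in bases from the start site, with blocks drawn to scale over the 6 bases of each match. Prtn3 and Elane each have a PU.1 match within 100 bases of the start, and Ms4a3 has no match.

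Granulocytes were compared with each other population to see how far the signals of the mature cells lay from the others. At least 4-fold higher in HPC than in granulocytes were 5 of 5 genes, against 8.78% of all genes. Mpo was 130-fold higher, Ctsg at least 122-fold, Prtn3 at least 105-fold and Elane at least 18.2-fold. Among the 9308 genes measured on both arrays, the log2 difference of Mpo ranked 2 from the top. At least 4-fold higher in ST-HSC than in granulocytes were 3 of 5 (9.07% of all genes), namely Mpo at 76.1-fold, Prtn3 at least 20.2-fold and Ctsg at least 5.59-fold. The Ctsg call was lost with the floor at the 60th percentile, where its log2 difference was 1.87. In LT-HSC 2 of 5 were so (9.26% of all genes), namely Prtn3 at least 18.0-fold and Mpo 4.67-fold. No gene of the 5 was 4-fold lower than in granulocytes in HPC (4.44% of all genes), LT-HSC (4.38%) or ST-HSC (4.97%). These 3 comparisons share the granulocyte array.

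The balance of higher and lower calls among all genes depended on the scaling. Of all genes 4-fold apart, 66.4% were higher in HPC than in granulocytes, and 82.8% after scaling to the hybridization controls. The figures were 67.9% and 82.7% for LT-HSC and 64.6% and 76.4% for ST-HSC. With a common 75th percentile the LT-HSC figure was 54.8%. That scaling took the log2 difference of Mpo between LT-HSC and granulocytes under 4-fold. The number of the 5 genes called higher in that comparison was then 1 (7.18% of all genes). The sign of the small Ms4a3 difference between LT-HSC and granulocytes turned under scaling to the hybridization controls, from -0.53 to 0.05.

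The c-Kit positive populations were compared next. At least 4-fold higher in HPC than in LT-HSC were 5 of 5 genes, against 0.572% of all genes, and none was 4-fold lower (1.45%). Ctsg was 78.1-fold higher and ranked 1 among the 9998 genes measured on both arrays. Mpo was 27.9-fold higher and ranked 3, Ms4a3 was 9.06-fold higher and ranked 16, and Prtn3 was 5.84-fold higher and ranked 28. Elane was at least 18.2-fold higher. Of all genes 4-fold apart here, 28.3% were higher in HPC, and 42.5% with a common 75th percentile.

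HPC against ST-HSC leaves out the LT-HSC array with its neutrophil transcripts. It shares the HPC array with the comparison above. Here 4 of 5 genes were at least 4-fold higher in HPC (1.12% of all genes) and none 4-fold lower (1.08%). Ctsg ranked 3, Ms4a3 6 at 16.9-fold, Elane 11 and Prtn3 58 among 9894 genes measured on both arrays. Mpo ranked 1373, with a log2 difference of 0.77. Of all genes 4-fold apart, 51.0% were higher in HPC, and 68.2% after scaling to the hybridization controls. Within the Sca-1 positive gate, 1 of 5 genes was 4-fold higher in ST-HSC than in LT-HSC (0.693% of all genes) and none 4-fold lower (1.29%). That gene was Mpo, whose difference ranked 1 among 9904 genes measured on both arrays. Of all genes 4-fold apart there, 34.9% were higher in ST-HSC, and 21.1% after scaling to the hybridization controls.

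**Figure D4:**
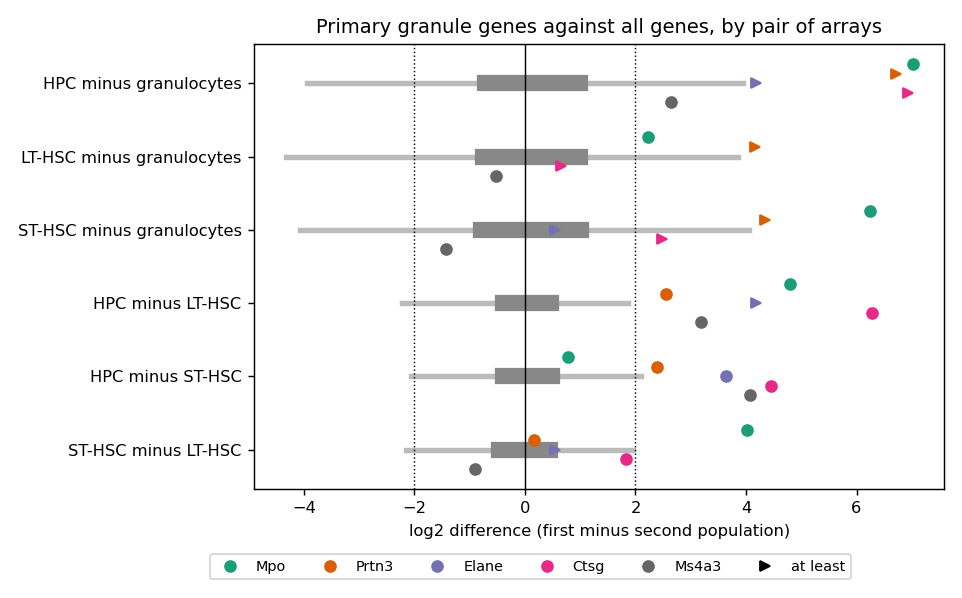
log2 differences of the 5 genes (points, or triangles where 1 side is under the floor and the value is a lower bound) for each pair of arrays. Grey lines run from the 1st to the 99th percentile and thick bars from the 25th to the 75th percentile of all genes measured on both arrays; dotted lines mark 4-fold, and Mpo stands apart from the other 4 genes for ST-HSC minus LT-HSC.

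At least 4-fold higher in HPC than on each of the other 3 arrays were 19 genes, or 0.104% of all. Of the 5 genes, Ctsg, Elane, Ms4a3 and Prtn3 were among them, and when the 19 were ordered by their smallest fold, Ctsg came first and Elane next. Mpo was not, because of ST-HSC. The 19 genes also held Mcpt8, a protease of basophils, Ly86, Hpse (heparanase), F13a1 (a subunit of coagulation factor XIII) and Cst7 (cystatin F, an inhibitor of cathepsins). The rest were Ddx31 and Parpbp, which came before Ly86 in that order, and Lpxn, Kif20b, Rad51c, Cenpi, Trnp1, Gria3, Slc16a10 and S1pr3. Another probe set of Ddx31, Parpbp, Gria3, Slc16a10 and S1pr3 stayed under 4-fold between HPC and LT-HSC. Without the LT-HSC array 77 genes met the rule, without the granulocyte array 50 and without the ST-HSC array 38. In these cases it was met by 4, 4 and 5 of the 5 genes.

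The 5 genes had different profiles over the 4 arrays. Likeness was measured as the root mean square difference between log2 values centred on each gene's mean over the 4 arrays, so that 0 is an identical profile. The closest pair was Elane and Ms4a3 at 0.78, followed by Elane and Ctsg at 1.08, and the least alike was Mpo and Ms4a3 at 2.78. Elane was the second nearest of 3519 genes to Ctsg. Nearest to Elane were F13a1 (0.29), Mcpt8 (0.41) and Parpbp (0.50), and nearest to Ctsg besides Elane were S1pr3 (1.00), a sphingosine 1-phosphate receptor gene, and Cst7 (1.11). Pdgfrb (0.92), Atad5 (1.14) and Gfm1 (1.17) came nearest to Mpo, Ank (0.62), Hacd1 (0.69) and Tfdp2 (0.73) to Prtn3, and Lpxn (0.30), Pdss2 (0.53) and Parpbp (0.53) to Ms4a3. Elane was at the floor in granulocytes and LT-HSC, so its distances, those to Ms4a3 and Mcpt8 included, are partly set by the floor. With 4 arrays these distances describe profiles only.

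Markers of other cells differed between the arrays as well. Of 6 granulocyte-monocyte progenitor markers, 4 were at least 4-fold higher in HPC than in ST-HSC (1.12% of all genes), and 3 than in LT-HSC (0.572%). Csf1r, which encodes the receptor for M-CSF, had 13089 for granulocytes, 11928 for HPC, 523 for ST-HSC and 210 for LT-HSC. Another of its probe sets put HPC less than 4-fold above both stem cell arrays, at log2 differences of 1.58 for LT-HSC and 1.37 for ST-HSC. Against granulocytes, 2 of these markers (Ly86 and Irf8) were at least 4-fold higher in HPC (8.78% of all genes). The other direction held 3 (Csf2ra, Csf3r and Fcgr3, 4.44% of all genes), and the median log2 difference was -1.59. For 6 eosinophil, basophil and mast cell markers the summed signal was 2567 in HPC and 525 to 676 on the other arrays. Among them Mcpt8 had 1096 and Cpa3 1186 in HPC, while Epx and Fcer1a lay under the floor on every array. Prg2 went the other way, with 291 in granulocytes and 126 in HPC. Ms4a2 had 126.5 in HPC, close to the floor, and was under it elsewhere. For 5 monocyte and macrophage markers the sum was 27903 for granulocytes, 3726 for HPC, 1100 for ST-HSC and 860 for LT-HSC, and C1qa was under the floor throughout. Cd14 made up 26441 of the granulocyte sum. Ccr2 was 4.28-fold higher in HPC than in granulocytes, at 1337 against 312, but 3 further probe sets of this gene went the other way. Cx3cr1 had 311 for HPC and was under the floor elsewhere. The part of these cells in the HPC values was not tested. Of 6 stem cell markers, 3 were at least 4-fold lower in HPC than in LT-HSC (Mecom, Hlf and Procr, 1.45% of all genes) and 2 than in ST-HSC (1.08%). For Mecom the other probe set above the floor had the opposite sign, 0.37 in both comparisons, so its call rests on the choice of probe set. Summed signals of lymphoid, erythroid and megakaryocyte markers ran over the arrays from 529 to 3810 for 3 B lineage markers, 328 to 4206 for 3 T and NK markers, 272 to 626 for 3 erythroid markers and 771 to 2935 for 4 megakaryocyte markers. The T and NK sum was highest in granulocytes, where Cd3d had 3890, against 14.6 to 206 on the other arrays. Cd3e and Cd8a were not highest there, and the source of the Cd3d signal was not tested. Egg markers, checked because cells were packed in egg coats, summed to 225 to 714 over 4 genes, and Zp3 and Bmp15 lay under the floor throughout. Gdf9 was above the floor on all arrays but ST-HSC, with 504 for granulocytes, 243 for LT-HSC, 170 for HPC and 106 for ST-HSC. Zp2 was above it only in granulocytes, at 175. The source of these signals was not tested.

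Partners of the granule proteins gave a mixed picture. Of 9 measured genes for cargo, processing and sorting, 1 was at least 4-fold higher in HPC than in granulocytes (8.78% of all genes) and 2 were lower (4.44%). The median log2 difference was -0.43 against 0 over all genes. The higher one was Ctsc, which encodes the dipeptidyl peptidase that activates the granule proteases, with 4788 for HPC, 3536 for LT-HSC, 2265 for ST-HSC and 239 for granulocytes. Another Ctsc probe set gave a log2 difference of -0.69 between HPC and granulocytes, so this difference rests on the choice of probe set. The lower ones were the lysozyme genes Lyz1 and Lyz2, near-identical copies whose signals may not be separable. Lyz2 had 41013 in granulocytes and 2603 to 3366 elsewhere. Srgn, the proteoglycan that holds the proteases in the granule, was bright on every array, at 32995 in granulocytes and 11872 to 15790 elsewhere. Scaling to the hybridization controls moved the median of the list to 0.20 and all genes by 0.63. Vps13b was 4.57-fold lower in HPC than in ST-HSC, where its other probe set had the opposite sign (0.10). Gusb, a lysosomal enzyme, was 4.35-fold higher in ST-HSC than in LT-HSC, and by 0.86 on the log2 scale with its other probe set.

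Inhibitors of the serine proteases were highest in granulocytes where they were measured. Of 5 with a probe set, 3 were at least 4-fold lower in HPC than in granulocytes (4.44% of all genes) and none was higher (8.78%), with a median of -2.11. The others, Serpina1b and Serpina3n, lay under the floor on every array. Slpi, the secretory leukocyte protease inhibitor, had 34267 for granulocytes, 2309 for HPC, 618 for ST-HSC and 129 for LT-HSC. Serpinb1a, which inhibits elastase, proteinase 3 and cathepsin G inside the cell, had 13483 in granulocytes and 1808 to 3122 elsewhere. Serpinb6a had 3950 for granulocytes, 2122 for LT-HSC, 573 for ST-HSC and 274 for HPC. Slpi and Serpinb1a were 4-fold lower than in granulocytes on all 3 other arrays, and Serpinb6a on 2, not on LT-HSC. Of all genes, 4.38% were so in LT-HSC and 4.97% in ST-HSC. Slpi was also 17.9-fold higher in HPC and 4.80-fold higher in ST-HSC than in LT-HSC, and Serpinb6a 7.73-fold lower in HPC than in LT-HSC.

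**Figure D5:**
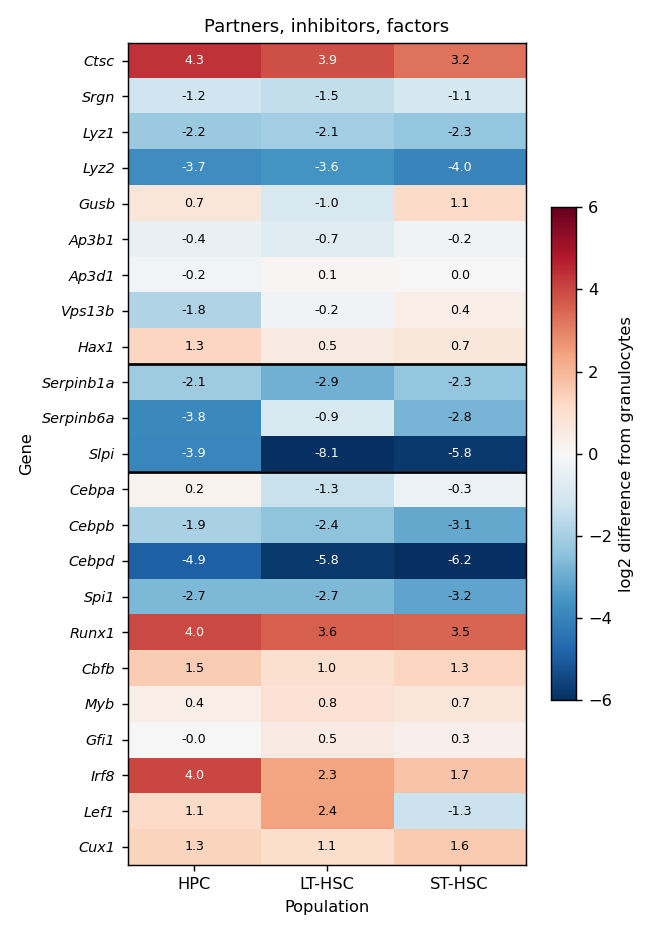
log2 difference from granulocytes on the HPC, LT-HSC and ST-HSC arrays for cargo, processing and sorting partners (top block), inhibitors of the proteases (middle) and transcription factors (bottom), with signals under 120.1 set to that floor and colours capped at 6. The 3 inhibitors drawn are lower on all 3 arrays than in granulocytes, from -0.90 for Serpinb6a in LT-HSC to -8.06 for Slpi in LT-HSC.

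Transcription factors known to act on primary granule genes had mixed profiles. Of 11 measured, 2 were at least 4-fold higher in HPC than in granulocytes (8.78% of all genes) and 2 lower (4.44%), with a median of 0.40. None was 4-fold apart between HPC and LT-HSC (median 0.37), where few of all genes were (0.572% higher and 1.45% lower). Spi1, which encodes PU.1, had 4175 for granulocytes, 654 for HPC, 648 for LT-HSC and 459 for ST-HSC, so it was highest where the 3 proteases were not measured. Cebpd had 32337 in granulocytes and 427 to 1073 elsewhere. Cebpb was 3.81-fold lower in HPC, 5.33-fold lower in LT-HSC and 8.53-fold lower in ST-HSC than in granulocytes. Its other probe set gave a log2 difference of -3.65 between HPC and granulocytes. That Cebpb was not called there thus rests on the choice of probe set. Cebpa, a factor of the step into the granulocyte-monocyte lineage, had 856 for HPC, 731 for granulocytes, 580 for ST-HSC and 288 for LT-HSC, and its HPC value was 2.97-fold that of LT-HSC. With the probe sets used, Myb stayed between 5708 and 10275, and Gfi1 between 350.3 and 501. The other 2 Myb probe sets gave log2 differences of 1.85 and 2.29 between LT-HSC and granulocytes. Between HPC and granulocytes they gave 0.86 and 1.26. Irf8, a factor of the monocyte branch, had 10505 for HPC, 3320 for LT-HSC, 2123 for ST-HSC and 653 for granulocytes. Irf8 and Lef1 were the 2 factors at least 4-fold higher in HPC than in ST-HSC (1.12% of all genes), at 4.95-fold and at least 5.28-fold. However, the other Irf8 probe set gave a log2 difference of 1.46. Lef1 was also 5.31-fold higher in LT-HSC than in granulocytes, where its other probe set had the opposite sign, and at least 12.9-fold higher in LT-HSC than in ST-HSC. Runx1 had 9.7 in granulocytes and 1336 to 1873 elsewhere, but its other 5 probe sets above the floor gave log2 differences between HPC and granulocytes of -1.05 to 1.00.

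Genes for making and folding the haem enzyme were measured as well. Of 7 haem synthesis enzymes, Alad and Uros were at least 4-fold higher in HPC than in granulocytes (8.78% of all genes). Alas1, the first and rate-limiting enzyme, was lower (4.44% of all genes). The median was -0.43 against 0 over all genes, and 0.20 after scaling to the hybridization controls, which moved all genes by the same 0.63. Alas1 had 11592 in granulocytes and 2523 in HPC, against 859 in LT-HSC and 913 in ST-HSC. All 3 calls rested on the choice of probe set: the other one gave 0.88 for Alad, -1.46 for Uros and -1.56 for Alas1. With the probe sets used, Alad and Uros were also at least 4-fold higher in LT-HSC (9.26% of all genes) and ST-HSC (9.07%) than in granulocytes. Of 4 folding factors of the endoplasmic reticulum, 2 were at least 4-fold higher in HPC than in granulocytes (8.78% of all genes). These were the lectin chaperone genes Calr and Canx, at 4.66-fold and 5.71-fold. Canx was also 4.10-fold higher in LT-HSC (9.26% of all genes) and 5.20-fold higher in ST-HSC (9.07%) than in granulocytes. For ST-HSC another Canx probe set gave a log2 difference of 1.82. Pdia3 was 3.03-fold higher in HPC than in granulocytes, but its other probe set gave a log2 difference of -1.11. Hspa5 had 20317 in HPC and 20981 in granulocytes. Among 17 measured family relatives, the other peroxidase genes Epx and Lpo lay under the floor everywhere. Mcpt8 and Ms4a6b were at least 4-fold higher in HPC than in granulocytes (8.78% of all genes) and than in LT-HSC (0.572%). Mcpt8 and Ms4a6c were so against ST-HSC (1.12%), Ms4a6c by 6.25-fold. Ms4a6b was 4.28-fold higher and Ms4a6c 5.35-fold lower in ST-HSC than in granulocytes. The other Ms4a6c probe set stayed under 4-fold in both comparisons. Gzma, a granzyme of cytotoxic lymphocytes, was at least 7.64-fold lower in HPC and ST-HSC than in LT-HSC.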

How the data were processed

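Gene expression was measured on 4 single-colour Affymetrix arrays, 1 per sorted population. Per the labels' protocols, batches of 50 or 100 cells were placed in emptied egg coats for handling, and RNA of 50 to 200 cells went through 2 rounds of linear amplification before biotin labelling, which favours the 3′ ends of transcripts. The authors deposited 1 linear intensity per probe set and array. Which software summarised the probes is not given in the sources used here. With 2% trimmed, the mean was 500.00 on each array, so the values were used as scaled by the authors.

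Of 45101 probe sets, 64 controls were left out. Gene symbols came from GEO's platform annotation, and 34945 probe sets had exactly 1. Signals were floored at 120.1 and log2 transformed. A gene of several probe sets was represented by that with the highest mean. A gene was called at 4-fold, and where 1 side lay under the floor the fold is a bound. No test was possible. Profiles were compared with genes above the floor on at least 2 arrays and with a range of at least 2 log2 units, leaving out clone names and predicted genes, and the 3 nearest are named. Partner and family genes 4-fold apart are named, while markers of other cells are given by sums and counts, with examples of both chosen after their values were seen. The 5 genes and the lists were chosen with earlier results of these data known. Alternatives were the floor, the scaling, the choice of probe set and the fold. The procedure was tested on simulated data. Scripts ran under Python 3.11.15 with pandas 2.3.3, numpy 2.4.6 and, for plots, matplotlib 3.10.9.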

Additional observations from a re-analysis of the deposited data

How the results depend on the processing

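Of 261 recomputed log2 differences of the 5 genes, 246 stayed within 1 yardstick SD of the reported value, 15 moved further and none of 4-fold or more changed sign. The alternatives for the choice of probe set could not move any of them, because each of the 5 genes has 1 probe set. The count of 246 was thus partly fixed in advance. At 8-fold, 4 of the 5 genes instead of 5 were higher in HPC than in granulocytes (3.55% of all genes). The same number was higher in HPC than in LT-HSC (0.159%), and 3 instead of 4 than in ST-HSC (0.220%). In ST-HSC against granulocytes 2 instead of 3 were called with the floor at the 60th or 75th percentile or at 8-fold. The shares of all genes called higher there were 7.54%, 4.25% and 3.72%. In LT-HSC against granulocytes 1 gene instead of 2 was called with the floor at the 75th percentile, with a common 75th percentile or at 8-fold. Of all genes, 3.97%, 7.18% and 3.68% were called higher in these cases. At 2-fold, 1 gene of the 5 was lower in ST-HSC than in granulocytes (14.4% of all genes). Higher in ST-HSC than in LT-HSC at 2-fold were 2 of the 5 (5.41%). Higher in HPC than on each other array were 2 of the 5 genes at 8-fold instead of 4 at 4-fold. The number of all genes meeting that rule was 12 with the floor at the 75th percentile and with the first probe set by name, 34 with the hybridization controls, 197 at 2-fold and 4 at 8-fold. Left out in turn, the LT-HSC, granulocyte and ST-HSC arrays gave 77, 50 and 38, and these alternatives were chosen after seeing the data. The causes were not tested beyond the construction of each alternative. Scaling to the hybridization controls shifted all genes by 0.63, 0.58 and 0.39 log2 units for HPC, LT-HSC and ST-HSC against granulocytes and by 0.24 for HPC against ST-HSC. A common 75th percentile shifted them by -0.13, -0.34 and -0.22 against granulocytes. Of differences under 4-fold, that of Prtn3 between ST-HSC and LT-HSC turned from 0.16 to -0.03 with the hybridization controls, and that of Ms4a3 between LT-HSC and granulocytes is given above. The floor limits every difference with 1 side under it. With the floor at the 75th percentile the log2 difference of Ctsg between ST-HSC and granulocytes was 0.64 in place of 2.48, and that of Elane between HPC and ST-HSC 2.34 in place of 3.64. Each gene rests on 1 probe set and each population on 1 array. No paired analysis was possible because each population had 1 array.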

Other observations

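The ratio of the 3′ to the 5′ probe set of beta-actin, a measure of how far amplified transcripts reach from their 3′ end, was 5.75 on the granulocyte array, 12.2 for HPC, 14.6 for LT-HSC and 16.1 for ST-HSC. For Gapdh it was 12.4, 17.8, 14.9 and 12.4 in the same order. The part of this in the values of the 5 genes was not tested.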
